A study of Homo sapiens with 3 samples.

Results

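Unannotated MATR3 clusters that lie downstream of 3′ UTR clusters were examined in PAR-CLIP data from HEK293, a human cell line derived from embryonic kidney. PAR-CLIP crosslinks protein to RNA at a labelled uridine, which is then read as C instead of T. A cluster is a short stretch of transcript covered by crosslinked reads. A cluster was included when the deposited table gave it no annotation, it was not mitochondrial, and a 3′ UTR cluster of the same replicate and strand lay 5′ of it at no more than 10000 nt. By this rule 2777 of 133088 clusters were chosen in replicate 1, 2834 of 131679 in replicate 2 and 2607 of 124040 in replicate 3. They made up 16.3% ± 0.81 of the unannotated nuclear clusters (SD, n = 3). They are called downstream clusters here, and the gene named in the nearest upstream 3′ UTR row is called the host gene. The cells were labelled HEK293-WT with no treatment, the antibody was against MATR3, and the 3 libraries were biological replicates of this single group. There was no input, mock or knockout library, so that RNA abundance and binding per molecule cannot be told apart.

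MATR3 (matrin 3) is an abundant nuclear RNA-binding protein known to bind pyrimidine-rich RNA, mostly in introns, and to act with PTBP1 in splicing. RNA polymerase II normally goes on transcribing past the poly(A) site of a gene. The RNA beyond the cleavage site is usually degraded by the exonuclease XRN2, which helps to end transcription. When cleavage or termination is inefficient, long transcripts called readthrough or downstream-of-gene transcripts can remain in the nucleus. These tables hold clusters and not whole transcripts, so whether a downstream cluster belongs to the same RNA molecule as its host gene was not tested.

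The letters of these sites are shown first for 6 of the leading host genes, to let the composition of the bound RNA be seen. Each line is the stretch of 30 bases with most T in the downstream cluster that had most reads for that gene outside annotated genes. It is written 5′ to 3′ on the transcript strand with T for U, and capitals mark the longest run of C and T. Where runs tie, as in PCBP2 and MRPL27, the first is marked. The stretches were picked for T, the base that PAR-CLIP crosslinks, so their T content is no finding.
TARS, plus strand, chr5:33472996-33473025: ttcactctgtctattgcatcaTTTTCTgat
PCBP2, plus strand, chr12:53482969-53482998: cccctgggCTTCCTggtcctccaggttcat
NOL6, minus strand, chr9:33456688-33456717: tcccaggcttccagcctctgTCTCTCTCTT
SKP1, minus strand, chr5:134142749-134142778: cttcttgatggttggcttcttggCCTCCTT
UBN1, plus strand, chr16:4883977-4884006: agtctagTTCCTTggatgacttggagttat
MRPL27, minus strand, chr17:50361047-50361076: TTCTTCTgagagtcttgacagagtcttctt
The coordinates are hg38. The longest run of C and T had 10 bases in NOL6, 7 in SKP1 and MRPL27, and 6 in TARS, PCBP2 and UBN1. None of the 6 stretches held ATCTT, the DNA form of the AUCUU element known for MATR3.

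The downstream clusters held 34151, 31668 and 33280 reads in replicates 1, 2 and 3. This was 2.07%, 2.10% and 2.17% of the reads in all clusters, which numbered 1649124, 1506682 and 1532602. The median downstream cluster had 9, 8 and 9 reads and 3 distinct reads in each replicate, and 36.1%, 28.5% and 37.2% of them rested on no more than 2 distinct reads. Intervals are not given for single clusters, since reads without molecular identifiers are not independent molecules. Median length was 40, 41 and 37 nt. The longest reached 338, 339 and 511 nt.

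The first question was whether unannotated clusters past 3′ UTR clusters followed the strand of the gene. On the strand of the 3′ UTR cluster they numbered 2777, 2834 and 2607. On the other strand, at the same distance past a 3′ UTR cluster, there were 282, 351 and 302. The same-strand count was 9.85, 8.07 and 8.63 times the other, a mean of 8.85 ± 0.91 (SD, n = 3). The log2 ratio of 3.14 ± 0.15 was above 0 in 3 of 3 replicates (exact two-sided sign-flip test, p = 0.25, the smallest possible with 3 replicates, 0.292 after Benjamini-Hochberg adjustment over 7 such tests). Of the downstream clusters, 49, 61 and 57 also lay past a 3′ UTR cluster of the opposite strand, where genes converge. Counting each 3′ UTR cluster with such a neighbour once lowered the log2 ratio to 2.56. With only clusters outside GENCODE genes on their own strand, a choice made after seeing the data, it was 3.08.

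All sides of the bound genes were then compared, per megabase that GENCODE release 44 leaves free of genes on that strand, a comparison also chosen after seeing the data. It covered 2815, 2868 and 2929 protein-coding genes with a 3′ UTR cluster and windows of 10000 nt beyond their annotated ends. Downstream on the same strand there were 125, 122 and 110.5 unannotated clusters per megabase. Downstream on the other strand there were 13.0, 15.2 and 13.0. Upstream there were 23.2, 21.2 and 23.8 on the strand of the gene and 20.2, 20.8 and 19.8 on the other. The same-strand downstream side was thus the highest in every replicate, 5.26-fold ± 0.57 above the upstream same strand and 8.72-fold ± 0.85 above the downstream other strand (SD, n = 3). Each of these 3 ratios was above 1 in 3 of 3 replicates (exact two-sided sign-flip test on the log2 scale, p = 0.25 for each, the smallest possible).

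**Figure D1:**
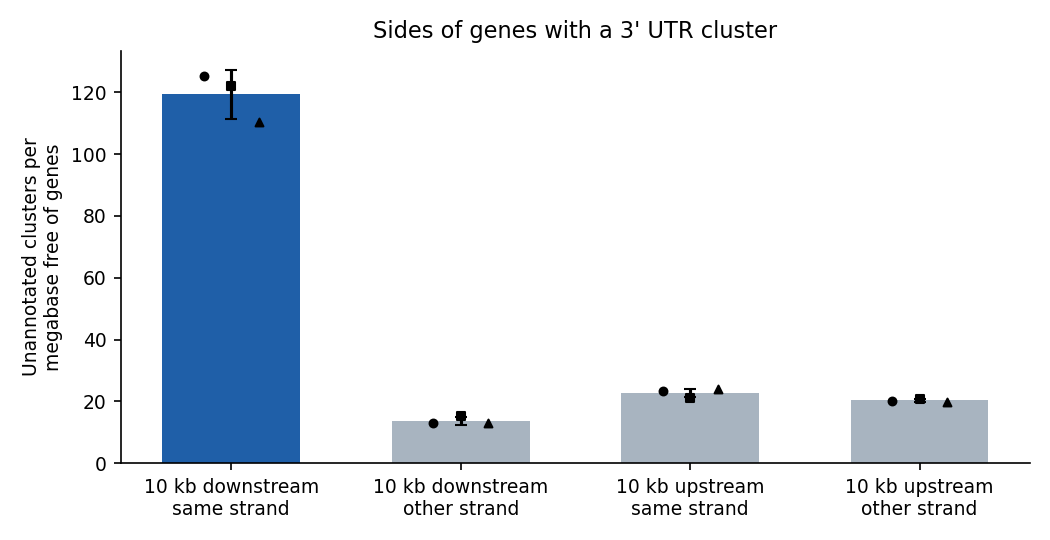
Unannotated clusters per megabase free of GENCODE genes in the 10 kb windows on each side of genes with a 3′ UTR cluster; bars are means, error bars SD, and points the 3 replicates (circle, square and triangle for replicates 1, 2 and 3). The same-strand downstream bar stands at 119 and the other bars lie between 13.7 and 22.7.

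The density of downstream clusters was then followed with distance. Their median gap to the 3′ UTR cluster was 3934, 3780 and 3899 nt. Counts per kb were not divided by the length of unannotated sequence at each distance, and its part in the profile was not tested. Per kb, there were 314 ± 5.13 in the first kb, 413 ± 42.6 in the second, 320 ± 19.4 between 2 and 5 kb and 211 ± 8.70 between 5 and 10 kb (SD, n = 3). On the other strand the same bins held 46.7 ± 9.29, 30.7 ± 8.96, 33.7 ± 4.41 and 26.7 ± 1.55 per kb (SD, n = 3). The share within 2000 nt was 26.5% ± 1.17 on the same strand and 24.6% ± 3.20 on the other. The difference, 1.89 percentage points ± 3.14, was within the spread and had both signs, with 0.739, -0.503 and 5.44 in replicates 1, 2 and 3 (exact two-sided sign-flip p = 0.50, 0.50 after adjustment). With at least 3 distinct reads per cluster the difference was 7.22 ± 4.46, and with at least 3 conversion locations 5.67 ± 8.87, of 1 sign in all replicates (exact sign-flip p = 0.25 both times). Leaving out 1 replicate gave 0.118 (without replicate 3) to 3.09 (without replicate 2). Density was lower in each bin past the limit of the rule. There were 174 ± 8.08 same-strand clusters per kb between 9 and 10 kb, 126 ± 6.65 between 10 and 20 kb and 54.4 ± 4.41 between 20 and 50 kb. The ratio to the other strand in those bins was 6.02 ± 0.22, 4.94 ± 0.65 and 3.12 ± 0.28 (SD, n = 3). Just inside the limit lay clusters of OTUD6B, PRELID1 and PHKA2, with gaps of 9982, 9992 and 10000 nt and 7, 6 and 5 reads. Just outside lay clusters of UBE3A, ZNF619 and GRSF1, with gaps of 10003, 10006 and 10007 nt and 21, 40 and 7 reads.

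**Figure D2:**
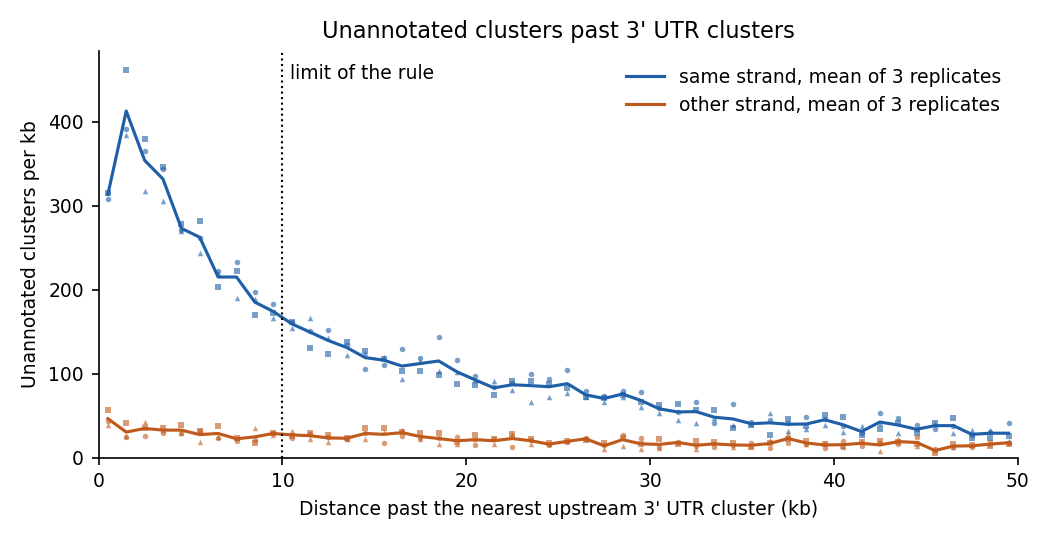
Unannotated clusters per kb (vertical axis) against distance past the nearest upstream 3′ UTR cluster in kb; lines are means of 3 replicates, points single replicates, and the dotted line the 10 kb limit of the rule. The same-strand line peaks at 413 in the second kb and falls from there, and the other-strand line stays below it throughout. Counts are not divided by the unannotated sequence at each distance.

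Most downstream clusters lay outside the genes that a current annotation places on their own strand. Being outside genes refers to that strand throughout. The rule takes only clusters without annotation in the deposited table, so a high share is in part fixed by it. In GENCODE release 44, 84.7% ± 0.19 overlapped no gene on their strand (SD, n = 3). A further 10.8% ± 0.19 lay inside the host gene as annotated there, 3.61% ± 0.14 in another protein-coding gene and 0.853% ± 0.10 in a long non-coding RNA gene. The near edge was past the annotated 3′ end of the host gene in 2466, 2526 and 2322 downstream clusters, or 89.0% ± 0.18 (SD, n = 3). Their median distance past it was 2980, 2862 and 3033 nt. Of these, 21.0% ± 0.32 lay within 1000 nt of the end and 28.1% ± 1.19 beyond 5000 nt. On the opposite strand 38.6% ± 0.49 overlapped a gene. The next protein-coding gene on the same strand started within 5000 nt of 13.1% ± 0.76 of them, and for those an unannotated start of that gene was not tested.

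Host genes numbered 956, 943 and 942, which was 33.8%, 32.7% and 32.0% of the genes with a 3′ UTR cluster in the replicate. The median host had 2 downstream clusters, and 41.4%, 40.2% and 46.1% of hosts had 1. Hosts with at least 5 numbered 179, 188 and 162, and the largest numbers were 19 for ARFGAP2 in replicate 1, 19 for CMTR1 in replicate 2 and 22 for RRP1 in replicate 3. The 20 hosts with most downstream reads held 14.97%, 16.5% and 22.04% of the reads in downstream clusters. Hosts in any replicate numbered 1763, or 38.6% of the genes with a 3′ UTR cluster in any. Of these, 314 were hosts in all 3, 450 in 2 and 999 in 1. The 314 were 21.9% of the 1437 genes that had a 3′ UTR cluster in all 3 replicates, and 707 of those genes were hosts in none. Across the 476, 460 and 456 hosts shared by pairs of replicates, Spearman's rho of downstream reads was 0.599, 0.590 and 0.582, with genes of different expression pooled and no p-value.

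The 3′ UTR signal of hosts was set beside that of other genes with a 3′ UTR cluster. The median 3′ UTR read count was 20 ± 1 in hosts and 14.7 ± 0.58 in the others (SD, n = 3). The mean number of 3′ UTR clusters was 2.49 ± 0.14 and 2.17 ± 0.016, and the part of this in the result was not tested. The rule itself counts from 3′ UTR clusters. Across hosts, which are not independent replicates, the mean rho of downstream reads was 0.079 ± 0.014 with 3′ UTR reads and 0.051 ± 0.027 with intron reads. An intron cluster in the same replicate was present in 86.7% ± 0.69 of hosts and 82.5% ± 1.75 of the others. The difference was 2.60, 3.90 and 6.12 percentage points in replicates 1, 2 and 3, higher in 3 of 3 (exact two-sided sign-flip p = 0.25, the smallest possible, 0.292 after adjustment).

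The rule needs a 3′ UTR cluster in the same replicate, so the downstream signal was also counted without that need. Of 1756 hosts with a GENCODE record, 771 had an unannotated cluster within 10000 nt past their annotated end in all 3 replicates, whether or not the 3′ UTR cluster was there. Another 441 had it in 2, 443 in 1 and 101 in none. Counts past the annotated end, here and below, include clusters that overlap another gene on the same strand. This was so for part of those past SLC25A11, WDR82 and SAFB2. The share in all 3 was 43.9% of hosts, beside 18.1% of all 4540 matched genes with a 3′ UTR cluster in any replicate (820 genes). Hosts were chosen for having a downstream cluster, so their share in part restates the rule.

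The 20 hosts with the highest value for the smallest of their 3 read sums were examined, and 18 of them are named below. Several encode RNA-binding and RNA-processing proteins. PCBP2, a poly(C)-binding protein, had 235, 344 and 391 reads in 10, 9 and 16 downstream clusters. All 35 lay outside annotated genes, from 184 to 8979 nt past its end on chromosome 12. Replicate 1 was the lowest, and replicates 2 and 3 were close. Its own 3′ UTR clusters held 20, 13 and 39 reads, so that downstream reads outnumbered them 11.8, 26.5 and 10.03 times. CMTR1, which methylates the first transcribed nucleotide of capped mRNA, had 97, 231 and 107 reads, with replicate 2 the highest. Inside its GENCODE gene lay 10 of its 35 clusters, and those outside held 89, 130 and 87 reads, the highest 1.49 times the lowest. HNRNPA2B1 had 126, 124 and 103 reads, but all 31 of its clusters lay inside the host gene as GENCODE draws it. Within 10000 nt past its annotated end there were another 6, 5 and 3 unannotated clusters, with 83, 31 and 30 reads.

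HNRNPA3, which encodes a related hnRNP protein, had 95, 80 and 488 reads, with replicate 3 far above the others. In replicate 3, 369 of the reads with 138 distinct reads came from chr2:177229649-177230093, 5690 nt past the gene end. The leading clusters of replicates 1 and 2 began at 177229121 and 177229035 with 34 and 40 reads. WDR77, a partner of the arginine methyltransferase PRMT5, had 76, 124 and 133 reads in 6, 8 and 9 clusters.

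Genes of translation and ribosome formation were also among the 20. TARS (TARS1 in GENCODE), which charges tRNA with threonine, had 272, 336 and 256 reads in 12, 14 and 18 downstream clusters. All 44 lay in no annotated gene, from 1675 to 10957 nt past the gene end on chromosome 5. The replicates lay close together, with the highest sum 1.31 times the lowest. Its leading clusters began at 33476931, 33472898 and 33479048 with 50, 100 and 39 reads, at 3 separate positions. NOL6, a nucleolar protein of ribosomal RNA processing, had 261, 227 and 188 reads in 16, 15 and 12 clusters. Its 3′ UTR clusters held 21, 5 and 6 reads and its introns 27, 29 and 42, fewer than its downstream reads in each replicate. MRPL27, a mitochondrial ribosomal protein gene, had 169, 162 and 138 reads in 11, 13 and 10 clusters.

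Another set acts in ubiquitin pathways. SKP1, the adaptor of SCF ubiquitin ligases, had 257, 187 and 331 reads in 16, 9 and 16 clusters on the minus strand of chromosome 5, from 684 to 8747 nt past its end. UBE3A, the ubiquitin ligase lost in Angelman syndrome, had 189, 108 and 105 reads in 13, 9 and 10 clusters. All 32 lay between 2849 and 7567 nt past its end, on the strand of UBE3A. Its introns held 905, 588 and 843 reads. RAD23B, a ubiquitin receptor of nucleotide excision repair, had 105, 74 and 117 reads.

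The others include genes of chromatin and metabolism. These headings only order the named genes, and whether any such group is frequent among hosts was not tested. UBN1, a subunit of the HIRA histone chaperone complex, had 211, 175 and 268 reads in 13, 6 and 13 clusters. SMC1A, a cohesin subunit, had 94, 99 and 112 reads, less than in its 3′ UTR in replicates 1 and 3, with ratios of 0.653, 1.52 and 0.789. HMBOX1, a homeobox protein, led the ranking with 350, 306 and 334 reads in 17, 12 and 13 clusters, but all 42 lay inside the host gene of GENCODE release 44. MTHFD2, a mitochondrial enzyme of folate metabolism, had 134, 167 and 267 reads. SLC25A11, the mitochondrial oxoglutarate carrier, had 89, 220 and 190 reads, and 21 of its 26 clusters overlapped another gene on the same strand. COX7A2L, an assembly factor of respiratory supercomplexes, had 76, 115 and 126 reads, all inside its GENCODE gene. C20orf27 (ADISSP in GENCODE) had 131, 161 and 108 reads.

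**Figure D3:**
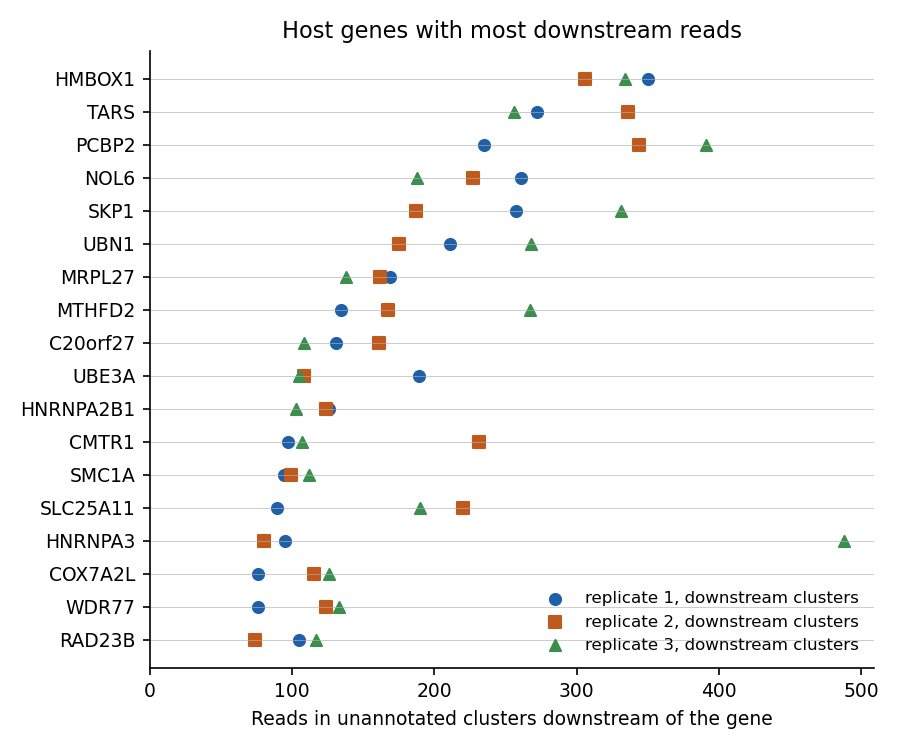
Reads in downstream clusters (horizontal axis) of the 18 named host genes; circles, squares and triangles are replicates 1, 2 and 3. HMBOX1 lies between 306 and 350 reads, and HNRNPA3 has 1 point at 488 far from its others at 80 and 95.

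Over these 20 hosts, 486 of 617 downstream clusters overlapped no GENCODE gene on their strand, 110 lay inside the host gene and 21 in another gene. For 14 hosts all clusters were outside genes, and for HMBOX1, HNRNPA2B1 and COX7A2L all were inside the host gene. On the other strand past the 3′ UTR clusters of the same 20 genes there was 1 unannotated cluster in the 3 replicates together, in CMTR1. Downstream reads outnumbered 3′ UTR reads in every replicate for 15 of the 20. The hosts were chosen for high downstream reads on the strand of the gene. This ratio and the contrast with the other strand therefore describe them and support nothing. The highest replicate sum was between 1.14 and 6.10 times the lowest, with a median of 1.62.

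**Figure D4:**
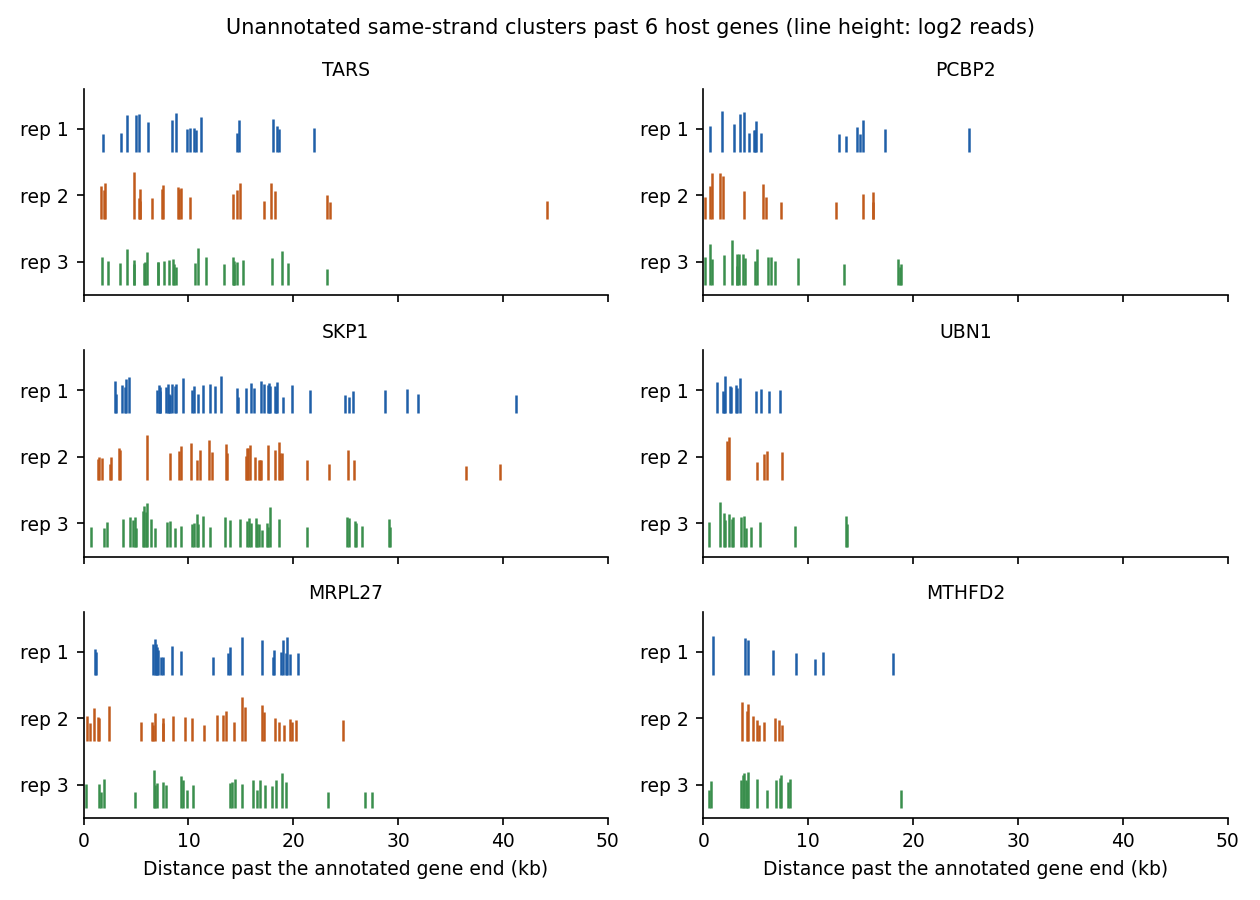
Unannotated same-strand clusters of 6 host genes by distance past the annotated gene end in kb, with replicates 1 to 3 from top to bottom in each panel and line height proportional to log2 reads. Clusters assigned to these genes up to 50 kb past a 3′ UTR cluster are drawn, and 1 cluster each of SKP1 and TARS lies past 40 kb.

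Outside these 20 hosts, the strongest single downstream cluster of each replicate was examined. SHMT2, a mitochondrial enzyme of serine and glycine metabolism, had the strongest of all, with 428 reads and 160 distinct reads over 511 nt in replicate 3. It lay at chr12:57239306-57239816, 4371 nt past the gene end. In replicate 1 the strongest had 140 reads and lay 9194 nt past CDK1, the kinase of mitotic entry. In replicate 2 it also had 140 reads and lay 5402 nt past CIRBP, a cold-inducible RNA-binding protein. These 3 clusters were singled out after their values were seen.

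Exact positions were compared between replicates as well. Overlapping downstream clusters of the 3 replicates formed 7570 groups, of which 7017 came from 1 replicate, 509 from 2 and 44 from all 3. The 44 belonged to 33 host genes or pairs of neighbouring hosts. Of them, 39 lay past the annotated end of the host gene and 38 overlapped no GENCODE gene on their strand. In 26 of them some bases were covered in all 3 replicates, with a median of 24 nt. The group past MTHFD2 ranked first by its lowest read count, with 30, 42 and 33 reads, 4262 to 4292 nt past the gene end. The group past NOL6 had 38, 25 and 24 reads. The group of HMBOX1, inside its GENCODE gene, had 45, 57 and 26. Groups past UBN1, PCBP2 and CHTOP had 29, 123 and 25, then 56, 163 and 20, then 39, 55 and 17 reads, with no base shared by all replicates. The group past CLIC4 had 34, 25 and 20 reads and shared 7 bases.

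The bases covered in all 3 replicates are shown for 2 of the leading groups outside annotated genes. These groups were picked for overlapping in all 3 replicates, and how often such overlap arises by chance was not tested. Up to 30 central bases are given, 5′ to 3′ on the transcript strand of hg38, with the longest run of C and T in capitals.
MTHFD2, plus strand, chr2:74221870-74221899: ctcgggactaaggtagggaTCTTTCagaag
NOL6, minus strand, chr9:33457141-33457160: agtcaTTCTTgaagtctgac
The MTHFD2 stretch holds ATCTT and the NOL6 stretch does not. Their longest runs of C and T had 6 and 5 bases.

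Downstream clusters were next compared with the other unannotated nuclear clusters, 15349, 14144 and 12946 in number. Their mean log2 read count was 3.35, 3.21 and 3.35 against 3.18, 3.10 and 3.16. The difference of 0.16 ± 0.04, or 1.11-fold, exceeded the spread and was positive in each of the 3 replicates (exact two-sided sign-flip p = 0.25, the smallest possible, 0.292 after adjustment). The mean share of their reads carrying T-to-C was 91.7%, 90.4% and 91.8% against 93.3%, 92.0% and 93.8%. This difference of -1.74 percentage points ± 0.22 was below 0 in 3 of 3 replicates (the same exact sign-flip test, p = 0.25, 0.292 after adjustment). Against clusters of equal read count, a comparison chosen after seeing the data, the difference was -0.428 percentage points. Per T position, conversion was 11.98% ± 0.45 in downstream and 11.9% ± 0.41 in other unannotated clusters (SD, n = 3).

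Recurrence was measured by overlap. An unannotated cluster of another replicate overlapped 22.3%, 21.3% and 22.5% of them and 15.4%, 16.9% and 17.9% of the others. The groups did not overlap, and recurrence was higher by 5.25 percentage points ± 1.39, with each replicate positive (exact two-sided sign-flip p = 0.25, the smallest possible, 0.292 after adjustment). It was 3.11 percentage points among clusters of equal read count, also chosen after seeing the data. With any 1 replicate left out, fewer clusters could be overlapped and it was 2.38 to 3.65, the lowest without replicate 2. Unannotated clusters of the other replicates were denser around them, with 11.1 ± 0.74 within 10000 nt on the same strand against 10.1 ± 0.62 (SD, n = 3), and the part of this in the result was not tested.

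Counting 1 cluster per host changed all 3 differences. With only the cluster nearest to the 3′ UTR kept for each host, the read difference was -0.027 on the log2 scale, that in the T-to-C share 0.511 percentage points and that in recurrence -0.0074 percentage points.

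**Figure D5:**
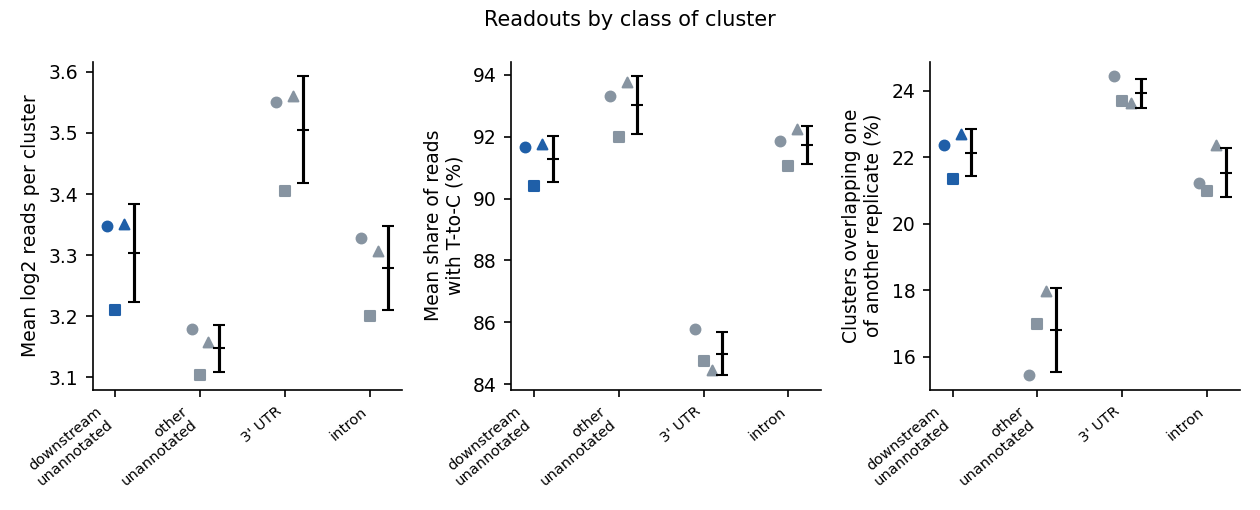
Mean log2 reads per cluster, mean T-to-C share of the reads (%), and clusters that overlap any cluster of another replicate (%), by class; symbols are replicates 1 (circle), 2 (square) and 3 (triangle) and the bars mean and SD. Vertical axes do not start at 0. The mean T-to-C share is 91.3% in downstream, 91.7% in intron and 85.0% in 3′ UTR clusters, not matched for read count.

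The same readouts in intron and 3′ UTR clusters are given for scale. Mean log2 reads were 3.30 ± 0.08 downstream, 3.28 ± 0.07 for introns and 3.50 ± 0.09 for 3′ UTRs (SD over 3 replicates). The mean share of T-to-C reads was 91.3% ± 0.75, 91.7% ± 0.61 and 85.0% ± 0.69. Conversion per T position gave another order. It was highest downstream, at 11.98%, against 10.9% for introns, and lower still for 3′ UTRs. Any cluster of another replicate overlapped 22.1% ± 0.71, 21.5% ± 0.74 and 23.9% ± 0.44. GC content was 51.6% ± 0.99 in downstream, 47.2% ± 0.72 in intron, 49.4% ± 0.59 in 3′ UTR and 49.6% ± 0.76 in other unannotated clusters. These side-by-side values were not matched for read count and were not tested.

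ATCTT was present in 8.14%, 7.06% and 7.63% of downstream clusters and in 8.75%, 8.25% and 8.50% of other unannotated clusters. The difference of -0.890 percentage points ± 0.29 was below 0 in 3 of 3 replicates (exact two-sided sign-flip p = 0.25, the smallest possible, 0.292 after adjustment). It was -1.71 with a limit of 5000 nt, -1.61 for clusters of 3 or more distinct reads, and -2.16 for those of 3 or more conversion locations. Compared with the 200 nt on either side, in 5 comparisons chosen after seeing the data, downstream clusters were richer in pyrimidines by 2.83 percentage points ± 0.54, at 56.3% against 53.4%. ATCTT occurred 1.66 ± 0.20 times per 1000 nt in clusters and 1.24 ± 0.06 times in the flanks. AATAAA, the commonest poly(A) signal, occurred 0.140 ± 0.067 times per 1000 nt in clusters and 0.441 ± 0.032 in the flanks (SD, n = 3). For pyrimidines, ATCTT and AATAAA all replicates gave 1 direction (exact two-sided sign-flip p = 0.25, the smallest possible). T content differed by 0.598 percentage points ± 0.48 and GC content by 2.44 ± 0.33, both above 0 in 3 of 3. Every cluster had at least 2 T-to-C conversion locations, which flanks need not have. The differences in T, pyrimidines and ATCTT are therefore in part fixed by how clusters are called. Other unannotated clusters differed from their flanks in a like way, with 3.15 percentage points ± 0.65 for pyrimidines. ATCTT occurred 2.02 ± 0.14 times per 1000 nt in them and 1.54 ± 0.06 times in their flanks. Thus the flanks of downstream clusters also held less ATCTT than the flanks of the others. AATAAA too was rarer in other unannotated clusters than in their flanks, at 0.161 ± 0.002 against 0.495 ± 0.010 per 1000 nt. For 3′ UTR clusters and their flanks it was 0.279 ± 0.017 against 0.631 ± 0.025 (SD, n = 3). Lower AATAAA was thus not particular to downstream clusters. T content was 28.2% ± 1.05 in downstream and 30.1% ± 0.89 in other unannotated clusters. The part of base composition in the ATCTT difference was not tested.

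A list of 30 genes that encode factors of 3′ end processing and termination was examined for clusters downstream of these genes themselves. Of these, 10, 11 and 15 had a 3′ UTR cluster and 3, 5 and 4 were hosts, or 30%, 45.5% and 26.7%, beside 33.8%, 32.7% and 32.0% of all genes with a 3′ UTR cluster. WDR33, the subunit that reads the poly(A) signal, had 173 and 53 downstream reads in replicates 1 and 2 and none by the rule in replicate 3. Within 10000 nt past its annotated end it nevertheless had 97 reads in 10 unannotated clusters there. By the rule, PAPOLA, a poly(A) polymerase, was the only one to be a host in all 3 replicates, with 16, 33 and 36 reads. CPSF6, which helps to choose the poly(A) site, had 32 and 22 reads in replicates 2 and 3. Within 10000 nt past its annotated end it had 32, 32 and 22 reads in replicates 1, 2 and 3. WDR82, a factor of termination complexes, had 23 and 33 reads by the rule in replicates 2 and 3. Within the same distance past its end it had 39, 79 and 66 reads in replicates 1, 2 and 3. TTF2 was no host but had 6, 32 and 12 reads within that distance. CPSF2, CPSF4, CPSF7, CSTF1, CSTF2T, NUDT21, PPP1CB and SYMPK had none there in any replicate. PPP1R10 had 7 and 41 reads in replicates 1 and 3, and PABPN1, the nuclear poly(A)-binding protein, 5 reads in replicate 2.

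A second list held MATR3 and 15 RNA-binding proteins known to act with or beside it. Of the list 10, 8 and 8 had a 3′ UTR cluster, and 6, 5 and 5 were hosts, or 60%, 62.5% and 62.5%, again beside 33.8%, 32.7% and 32.0% of all genes with a 3′ UTR cluster. PTBP1, the splicing repressor that binds MATR3, had 163 and 107 downstream reads in replicates 1 and 2, in 12 and 7 clusters from 102 to 5607 nt past its end. In replicate 3 it had no 3′ UTR cluster and so no downstream cluster by the rule, but 8 unannotated clusters with 114 reads lay within 10000 nt past its end. ELAVL1, which binds AU-rich RNA, and NONO, a paraspeckle protein, were hosts in all 3 replicates, with 7, 28 and 6 and with 53, 19 and 47 reads. Only 4 of the 6 clusters of NONO lay past its annotated end. Within 10000 nt past that end NONO had 27, 35 and 35 reads in unannotated clusters. SFPQ, the partner of NONO, had 39 reads in replicate 1 and 198 in replicate 3, but 8 of its 9 clusters lay before the end of its GENCODE gene. PTBP2 had 43 and 23 reads in replicates 1 and 2, and PTBP3 18 in replicate 1. SAFB2 had 51 reads in replicate 3, the only replicate in which it had a 3′ UTR cluster. Within 10000 nt past its annotated end it had 2, 9 and 5 unannotated clusters with 16, 109 and 51 reads. KHDRBS1 was no host in any replicate but had 6, 8 and 4 such clusters with 103, 112 and 52 reads. RALY, also no host, had 1 with 6 reads in replicate 1, and HNRNPL had none. HNRNPU had 38 and 56 reads in replicates 2 and 3, all inside its GENCODE gene, and 9, 3 and 16 unannotated clusters with 255, 21 and 295 reads within 10000 nt past its annotated end in replicates 1, 2 and 3. MATR3 had a 3′ UTR cluster in replicate 1 and was no host in any replicate. Past its annotated end it had 2, 1 and 1 unannotated clusters with 35, 5 and 10 reads.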

How the data were processed

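PAR-CLIP libraries of 3 biological replicates were analysed from the deposited cluster tables, called per replicate. Per the file headers, reads, distinct reads, conversion locations and conversion events are deposited as whole counts, not normalised. The authors also deposited a T-to-C fraction per cluster, between 0 and 1. The submitters' processing notes name hg38; the aligner, cluster caller and annotation release are not given in the sources used here. Every cluster had at least 4 reads, 2 conversion locations and 20 nt. Sequences of all clusters used in the flank comparison equalled hg38 at the deposited coordinates. The depth of the whole libraries is unknown, and counts can include copies of 1 molecule.

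The gap was measured from cluster edge to cluster edge. Hosts were matched by symbol, or by a RefSeq synonym, to GENCODE release 44, for 1756 of 1763 names. Each difference between classes was judged by an exact sign-flip permutation test, two-sided, on the 3 replicate values (Python 3.11.15, numpy 2.4.6, pandas 2.3.3, scipy 1.17.1), with selection and overlap checked on simulated clusters. The named genes are the 20 hosts present in all replicates with the largest minimum of summed reads, the 8 groups of overlapping clusters ranked the same way, and both lists. Of these, 2 hosts and 1 group are not reported here. The members and lists were chosen with earlier results of these data known. RNA-seq is not analysed here. Alternatives were a 5000 nt limit, at least 3 distinct reads or 3 conversion locations, 1 cluster per host, clusters outside genes, clusters of equal read count, other measures, and leaving out each replicate.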

Additional observations from a re-analysis of the deposited data

How the results depend on the processing

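Over 11 results, 82 alternative values were computed. Of these, 66 kept their direction and side of the threshold, stayed within 1 SD of the replicates where there was no test, or, for counts, stayed within 1.5 times the reported count. The tests could not go below 0.25, so their p-values say nothing about stability. With a limit of 5000 nt there were 1686 downstream clusters per replicate on average, 10.01% of unannotated clusters, 87.8% of them past the gene end, and 202 hosts in all replicates. With at least 3 distinct reads per cluster there were 1540, 88.2% past the end, and 164 hosts. With at least 3 conversion locations there were 966, or 13.8% of unannotated clusters, 88.3% past the end, and 87 hosts. These sets are smaller by construction. Leaving out 1 replicate gave 456 to 476 hosts in both others, against 314 in all 3. With the nearest cluster per host alone, the difference from other unannotated clusters was -0.027 in log2 reads, 0.511 percentage points in T-to-C share and -0.0074 in recurrence. Per T position the difference in conversion was 0.032 percentage points. Those 4 changed sign, and the cause was not tested. Others kept their sign but moved by over 1.5 times. The read difference was 0.09 (log2) with at least 3 distinct reads and 0.26 for distinct reads. The T-to-C difference was -0.724 percentage points for clusters of 3 or more distinct reads, and -1.15 for 3 or more conversion locations. The recurrence difference was 2.44 with at least 3 conversion locations and 2.32 when overlap had to cover 50% of both clusters. The intron difference of hosts was 2.44 with a limit of 5000 nt. The log2 strand ratio lay between 2.56 and 3.596 in the alternatives run. No paired analysis was possible because there is only 1 group of samples, and so no groups that share replicate numbers. Differences between classes of clusters were taken within each replicate.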

Other observations

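Clusters beyond the 10000 nt limit were counted for the 20 leading hosts. Between 10 and 50 kb past a 3′ UTR cluster of these genes, with no nearer 3′ UTR cluster in between, there were 362 unannotated same-strand clusters in the 3 replicates together, and 19 of the 20 hosts had at least 1. Of the 362, 325 lay past the annotated end of the host gene, in 18 hosts. SKP1 had 32, 28 and 30 of them, as far as 42412 nt. TARS had 7, 9 and 11, as far as 43022 nt. MRPL27 had 13, 18 and 19, as far as 29542 nt. HNRNPA2B1 had 11, 11 and 7, of which 6, 5 and 3 lay past its gene end. HMBOX1 had 1, in replicate 3 and before its gene end, and C20orf27 had none in the 3 replicates. Whether clusters this far away share a transcript with the gene was not tested.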
